A study of Mus musculus with 6 samples.

Results

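The Slc25 genes encode the mitochondrial carrier family, and they were taken as the protein-coding genes of the deposited gene tables whose Ensembl ID has a mouse symbol starting with Slc25a. There were 47 such genes among 57180 listed, and a processed pseudogene, Slc25a5-ps, was left out. Total kidney RNA came from 6 wild-type male C57BL/6J mice. In the NP200 group 3 mice received cationic polystyrene nanoparticles by mouth at 200 mg/kg once daily for 6 weeks. In the CON group 3 mice received deionized water, labelled 0 mg/kg, over the same time. All mice were 7 weeks old when they were obtained, and each library came from the kidney of a separate mouse. The libraries held 19408534 to 23793640 expected counts in NP200 and 23420454 to 26292760 in CON, of which the 47 genes took 0.357% to 0.381% in NP200 and 0.368% to 0.374% in CON.

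Mitochondrial carriers are small proteins that cross the inner membrane several times and exchange nucleotides, phosphate, metabolites, amino acids, cofactors or metal ions between the cytosol and the matrix. They feed ADP and phosphate to ATP synthase, export ATP, run the malate-aspartate and carnitine shuttles and supply the matrix with coenzymes. The proximal tubule, which makes up much of the kidney cortex, is packed with mitochondria and depends on these exchanges for reabsorption, gluconeogenesis and ammonia production. The labelled tissue was checked against its markers: the 9 proximal tubule genes summed to 15435 to 18207 CPM in NP200 and 17222 to 18080.5 CPM in CON kidneys, and the 3 genes of the thick ascending limb to 3818 to 4707 CPM in NP200 and 4502 to 5662 CPM in CON kidneys. Of the thick ascending limb genes, Umod had a log2 fold change, NP200 over CON, of -0.33, with every NP200 kidney below every CON kidney. Slc12a1 was at 0.02 and Cldn16 at -0.03, both with overlap. The distal convoluted tubule list summed to 533 to 776 CPM in NP200 and 538 to 738 CPM in CON kidneys. The collecting duct list summed to 243 to 294 CPM in NP200 and 227 to 236 CPM in CON kidneys, without overlap. Its highest sum, in NP200 1, held 149 CPM of 1 gene, Aqp2, which measured 61.1 and 46.1 CPM in the other NP200 kidneys. Of the 5 genes 3 had a positive and 2 a negative log2 fold change, NP200 over CON, with a median of 0.02. The groups did not overlap in 1 of them, Aqp3, against 12.9% of all genes. The podocyte list summed to 185 to 221 CPM in NP200 and 207 to 211 CPM in CON kidneys. In whole tissue, fewer cells of a type and less RNA per cell cannot be told apart.

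The ADP/ATP carriers show the range of levels within the family, and the DNA just before the start of its most abundant member, Slc25a5, and of its nearly silent relative Slc25a31 is shown for that reason. Both stretches are from RefSeq on the build GRCm38.p6 and lie on the plus strand, at chrX:36795347-36795596 for Slc25a5 and chr3:40708621-40708854 for Slc25a31, written 5′ to 3′. Of the 250 bases before the RefSeq start all are printed for Slc25a5 and 234 for Slc25a31, where the last 16 are left out because an annotated transcript begins there. The gene tables themselves were made on GRCm39. Capitals mark GC boxes (GGGCGG on either strand), the binding motif of Sp1-type factors.
Slc25a5: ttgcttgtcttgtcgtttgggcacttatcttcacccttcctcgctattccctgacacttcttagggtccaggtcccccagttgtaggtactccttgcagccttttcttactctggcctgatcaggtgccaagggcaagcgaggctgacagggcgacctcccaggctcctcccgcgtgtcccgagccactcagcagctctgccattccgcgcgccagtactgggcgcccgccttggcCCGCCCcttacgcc
Slc25a31: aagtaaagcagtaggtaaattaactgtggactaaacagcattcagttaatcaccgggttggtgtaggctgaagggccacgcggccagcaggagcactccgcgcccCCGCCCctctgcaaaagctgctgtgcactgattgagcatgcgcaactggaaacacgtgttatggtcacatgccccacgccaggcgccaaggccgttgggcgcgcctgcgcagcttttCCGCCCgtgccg
In the 250 bases before the RefSeq start, Slc25a5 held 1 GC box and 14 CpG dinucleotides, and Slc25a31 held 2 GC boxes and 18 CpG dinucleotides. Neither held a CCAAT box, a TATA box or the receptor site described next, on either strand. Upstream sequence was given for 36 of the 47 genes. A GC box was present in 24 of these (66.7%), against 32.9% of 27025 upstream stretches of the same length. A CCAAT box, searched on both strands by the letters of its name, was present in 16, or 44.4%, against 34.5%. A TATA box, searched as TATAAA, was found in 1, or 2.78%, against 13%. The site of estrogen-related receptors, which regulate mitochondrial genes, was searched as AAGGTCA and found in 1, or 2.78%, against 4.05%. The median number of CpG dinucleotides was 13 in the 36 Slc25 stretches and 6 in all. A match is a description of these letters and not a site in use.

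Levels of different genes were compared as CPM, which is the count relative to the TMM-scaled library size, divided by the effective length in kilobases. Slc25a5 stood at 705 ± 43.4 CPM per kilobase in NP200 and 741 ± 28.8 in CON (SD, n = 3 each) and made up 30.6% of the summed level of the family. Slc25a3, the phosphate carrier, followed at 305 ± 7.08 CPM per kilobase in NP200 and 326 ± 2.10 in CON, and Slc25a39, which carries glutathione into the matrix, at 216 ± 8.96 CPM per kilobase in NP200 and 223 ± 6.37 in CON. The ranges of these 3 over the 6 libraries did not touch one another, nor that of the next gene. Slc25a4, the ADP/ATP carrier that prevails in heart and skeletal muscle, was at 125 ± 7.98 CPM per kilobase in NP200 and 135 ± 8.39 in CON. Next came Slc25a10, the dicarboxylate carrier, at 121 ± 10.2 CPM per kilobase in NP200 and 129.8 ± 10.01 in CON. The ranges of Slc25a4 and Slc25a10 overlapped. Slc25a11, the oxoglutarate carrier of the malate-aspartate shuttle, was at 101 ± 4.61 CPM per kilobase in NP200 and 100.2 ± 4.63 in CON. Slc25a51, the carrier of NAD, was at 90.4 ± 6.97 CPM per kilobase in NP200 and 91.8 ± 0.836 in CON, and Slc25a36, a pyrimidine nucleotide carrier, at 66.1 ± 12.2 CPM per kilobase in NP200 and 59.7 ± 0.970 in CON. These 8 members held the same ranks in both groups. The ranges of Slc25a11 and Slc25a51 overlapped, and that of Slc25a36 lay below both. Of the 46 neighbouring pairs in the order of levels, 37 overlapped in their ranges and 9 did not, and no rank differed between NP200 and CON by more than 3 places.

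**Figure D1:**
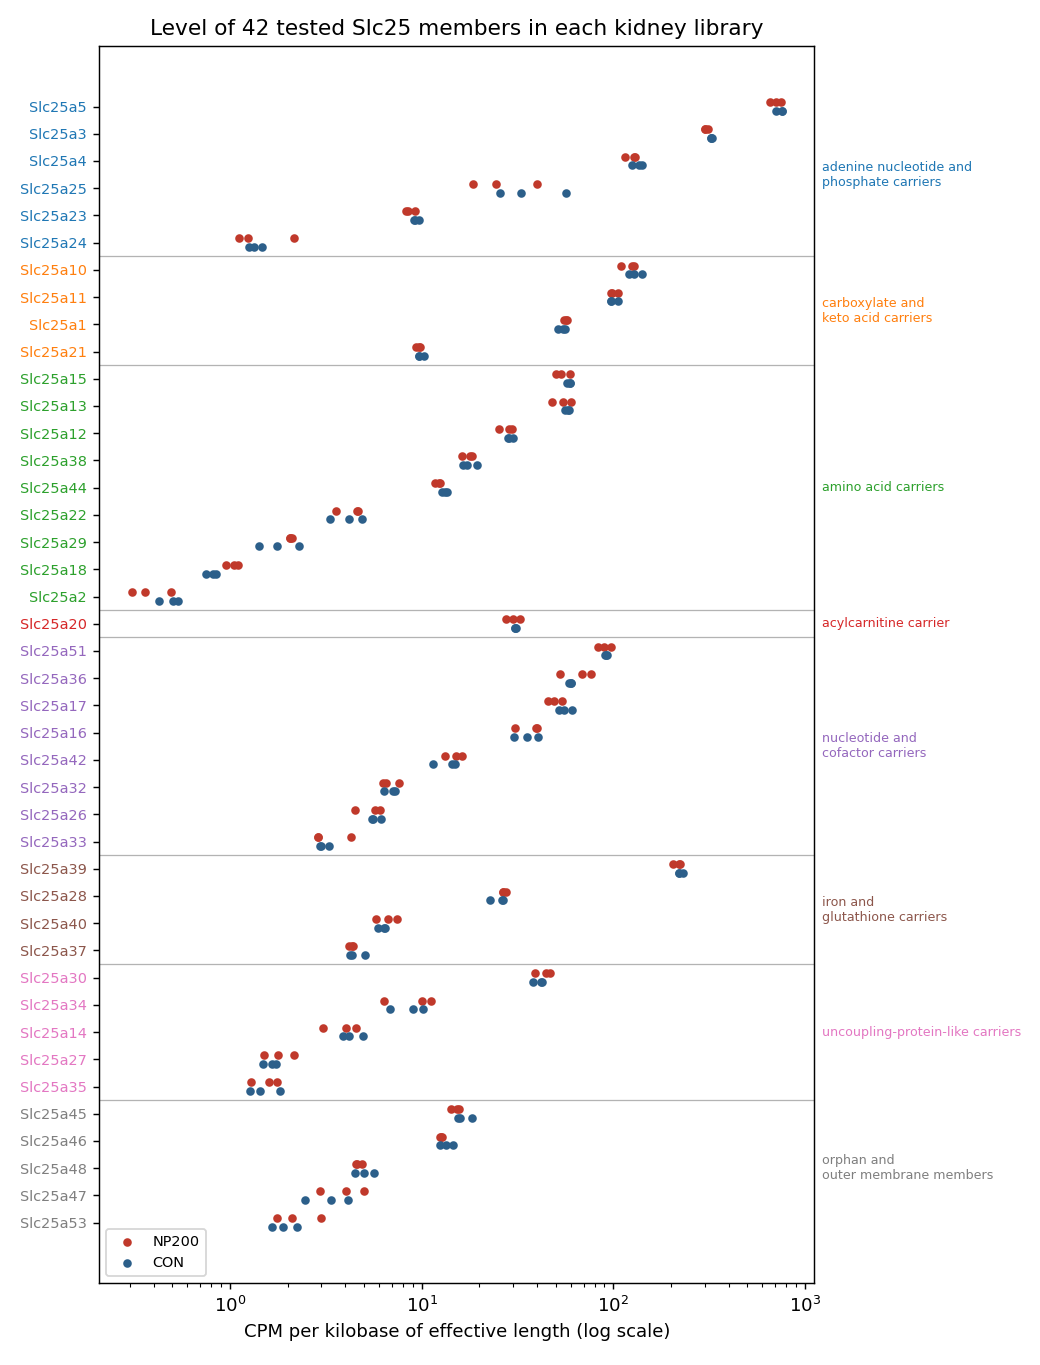
Level of 42 Slc25 genes that passed the count filter, in CPM per kilobase on a log axis, with 1 point per library for 3 NP200 (red) and 3 CON (blue) kidneys and the genes grouped by what they carry. The levels run from Slc25a5 at the top to Slc25a2, under 1 CPM per kilobase, and the points of a gene lie close together beside the distances between genes.

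No carrier gene passed the test after nanoparticles. The quasi-likelihood test of edgeR called 0 of the 43 members at an adjusted p under 0.05, and 0% of all genes (0 of 18092). DESeq2 called 0 of the 40 members it gave an adjusted p, and 55 of all 12496 genes with one, or 0.44%. limma-voom called 0 of the family and of all genes. At an unadjusted p under 0.05 edgeR gave 1 Slc25 gene, lower in NP200, against 7.19% of all genes (3.5% lower and 3.69% higher in NP200), DESeq2 gave 1, against 2.92% of all genes, and limma-voom 1, against 7.19%. The DESeq2 share is over 31316 genes with no count filter, and the other shares are over 18092 filtered genes. The groups did not overlap in 4 of 43 genes, 3 of them lower and 1 higher in NP200, against 12.9% of all genes (6.32% lower and 6.54% higher). The median log2 fold change of the 43 genes was -0.03, with 25 negative and 18 positive, beside a median of 0.007 over all genes, of which 48.1% were negative.

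The measurement was narrow enough to bound the changes. The 95% confidence interval lay wholly within a 2-fold change in either direction for 41 of 43 genes, or 95.3%, against 83.9% of all genes tested. It lay within a 1.5-fold change for 36 of 43, or 83.7%, against 63.1%. Slc25a25 and Slc25a2 were the exceptions to the wider bound. The median coefficient of variation within a group was 7.51% for the Slc25 genes and 10.1% for all genes. By level, with classes set after the levels were seen, the 12 genes at 50 CPM per kilobase or more had 9 negative values and a median of -0.08. The 18 genes from 5 to 50 CPM per kilobase had 12 negative values and a median of -0.04, and the 13 tested genes under 5 had 4 negative values and a median of 0.115.

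**Figure D2:**
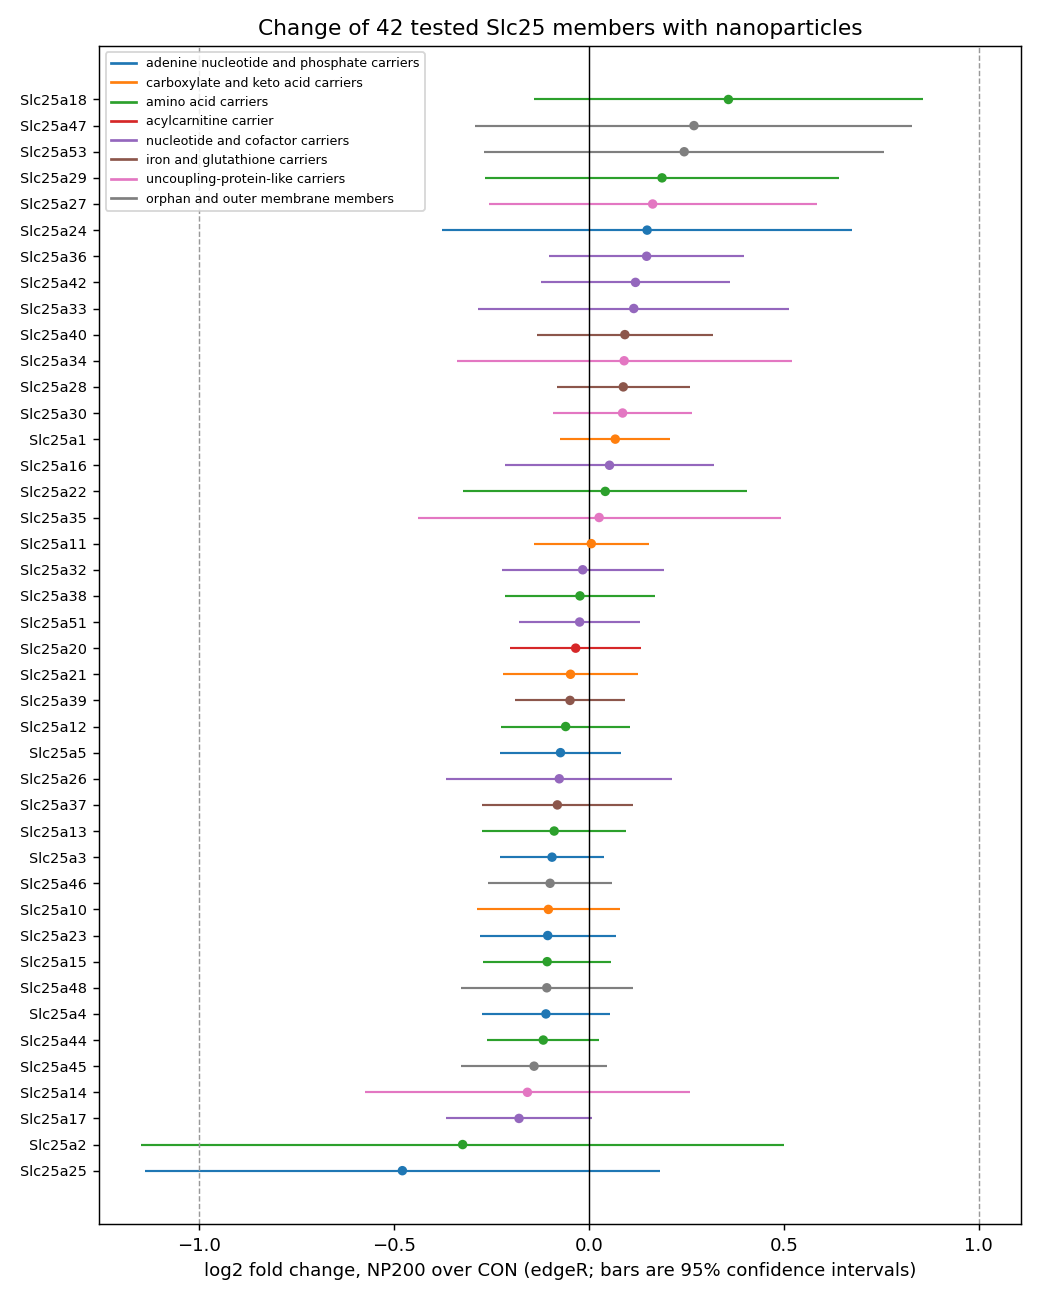
Log2 fold change, NP200 over CON, of 42 tested Slc25 genes, with 95% confidence intervals from edgeR and colours for what the genes carry; dashed lines mark a 2-fold change in either direction. Every interval drawn includes 0, and of those drawn only the intervals of Slc25a25 and Slc25a2 cross a dashed line.

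Slc25a17, which carries coenzyme A, FAD and NAD across the membrane of peroxisomes rather than mitochondria, measured 64.2, 75.6 and 68.5 CPM in NP200 kidneys, against 77.7, 85.5 and 72.7 CPM in CON kidneys. The groups overlapped, since NP200 2 was above CON 3 (log2 fold change -0.18, SE 0.08, 95% interval -0.37 to 0.01, edgeR adjusted p = 0.701). Slc25a17 was at -0.11 without CON 2, -0.25 without NP200 2 and -0.23 without CON 3, on the same log2 scale. Among the other cofactor and nucleotide carriers, Slc25a51 measured 167, 179.8 and 195 CPM in NP200 kidneys, against 182, 184 and 185 CPM in CON kidneys. The NP200 kidneys lay on both sides of the CON kidneys, which were nearly equal (log2 fold change -0.02, SE 0.07, 95% interval -0.18 to 0.13). Slc25a36 measured 199, 222 and 153 CPM in NP200 kidneys, against 169.5, 175 and 174 CPM in CON kidneys. NP200 1 and 2 were above every CON kidney and NP200 3 was below them (log2 fold change 0.15, SE 0.11, 95% interval -0.10 to 0.40). Slc25a36 was at 0.03 without NP200 2 and 0.29 without NP200 3, on the same log2 scale. Slc25a42, which exchanges coenzyme A for adenine nucleotides, measured 31.0, 35.3 and 38.0 CPM in NP200 kidneys, against 35.0, 26.9 and 33.9 CPM in CON kidneys, and the groups overlapped (log2 fold change 0.12, SE 0.11, 95% interval -0.12 to 0.36). Slc25a42 was at 0.20 without NP200 1, 0.05 without NP200 3, 0.19 without CON 1 and 0.01 without CON 2, on the same log2 scale. Slc25a16, a carrier linked to coenzyme A metabolism, had a log2 fold change of 0.05, and Slc25a32, a folate and FAD carrier, of -0.02. Slc25a26, the S-adenosylmethionine carrier, was at -0.08, and Slc25a33, a pyrimidine nucleotide carrier like Slc25a36, at 0.12. In this group 5 of 9 values were negative and the median was -0.02.

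The adenine nucleotide and phosphate carriers, which serve ATP synthase, had 5 negative values among 6 tested of 9, with a median of -0.10. Slc25a5 measured 679, 768 and 726 CPM in NP200 kidneys, against 779.8, 778 and 728 CPM in CON kidneys. NP200 1 and NP200 3 lay below every CON kidney, NP200 3 by little, and NP200 2 lay within the CON range (log2 fold change -0.07, SE 0.07, 95% interval -0.23 to 0.08). Slc25a5 was at -0.03 without NP200 1 and -0.12 without NP200 2, on the same log2 scale. Slc25a4 measured 190.0, 214 and 211 CPM in NP200 kidneys, against 225, 233 and 206 CPM in CON kidneys, with CON 3 below NP200 2 and NP200 3 (log2 fold change -0.11, SE 0.07, 95% interval -0.27 to 0.05). Slc25a4 was at -0.06 without NP200 1, -0.07 without CON 2, -0.14 without NP200 2 and -0.16 without CON 3, on the same log2 scale. Per kilobase, Slc25a5 exceeded Slc25a4 by 5.65-fold ± 0.136 in NP200 and 5.51-fold ± 0.156 in CON kidneys (SD, n = 3 each), a difference of about the spread between kidneys. Slc25a31, whose ADP/ATP carrier is known from male germ cells, had 0, 0 and 2 counts in NP200 kidneys, against 3, 6 and 0 counts in CON kidneys, too few for the test. Slc25a3 measured 406, 424 and 408 CPM in NP200 kidneys, against 439, 444 and 439.8 CPM in CON kidneys. Its 3 NP200 kidneys lay below the 3 CON kidneys, with means of 413 ± 9.58 CPM in NP200 and 441 ± 2.84 CPM in CON kidneys (SD, n = 3 each; log2 fold change -0.09, SE 0.06, 95% interval -0.23 to 0.04, edgeR adjusted p = 0.758). Expected counts of Slc25a5, Slc25a3, Slc25a10, Slc25a11 and Slc25a36 were not whole in any library, and the cause was not tested. The pseudogene Slc25a5-ps had 0, 0 and 0 counts in NP200 kidneys, against 0, 6 and 0 counts in CON kidneys.

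Slc25a25, Slc25a23 and Slc25a24 encode calcium-binding exchangers of ATP-magnesium for phosphate. Slc25a25 was the least even of the abundant members and measured 42.5, 55.7 and 90.6 CPM in NP200 kidneys, against 58.2, 129 and 75.0 CPM in CON kidneys. CON 2 was the highest library and NP200 1 the lowest, and the log2 fold change was -0.48 (SE 0.30, 95% interval -1.14 to 0.18). Jun and Fos, early response transcription factors named after their values were seen, were looked up with Egr1, Fkbp5 and Per1. Jun measured 17.5, 17.2 and 18.4 CPM in NP200 kidneys, against 16.9, 62.1 and 26.0 CPM in CON kidneys. Fos measured 1.75, 0.877 and 0.364 CPM in NP200 kidneys, against 1.32, 11.2 and 1.02 CPM in CON kidneys, and both were highest in CON 2. Egr1 too was highest in CON 2, at 15.7 CPM, while the glucocorticoid-induced Fkbp5 was highest in CON 3, at 74.9 CPM, and the clock gene Per1 in NP200 2, at 12.5 CPM. Their part in the value of Slc25a25 was not tested. Slc25a24 measured 6.94, 3.59 and 4.00 CPM in NP200 kidneys, against 4.33, 4.08 and 4.76 CPM in CON kidneys, with NP200 1 above all others (log2 fold change 0.15, SE 0.24). Slc25a23 had a log2 fold change of -0.11 (95% interval -0.28 to 0.07). Their relatives Slc25a41, with 1 count in all 6 libraries, and Slc25a54, with 0 counts, were not detected above the floor of 3 counts.

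The carboxylate carriers link the citric acid cycle to the cytosol, and 2 of 4 had a negative value. Slc25a10, which exchanges malate or succinate for phosphate, measured 181, 213 and 207 CPM in NP200 kidneys, against 234, 201 and 212 CPM in CON kidneys. The groups overlapped, with NP200 1 lowest (log2 fold change -0.10, SE 0.08, 95% interval -0.29 to 0.08). Slc25a10 was at -0.03 without NP200 1, -0.04 without CON 1 and -0.15 without NP200 2 or CON 2, on the same log2 scale. Slc25a11 measured 133, 142 and 130.1 CPM in NP200 kidneys, against 141, 130.4 and 131 CPM in CON kidneys, and its log2 fold change of 0.0063 was the nearest to 0 in the family (95% interval -0.14 to 0.15). Exons of Slc25a10 and Slc25a11 overlap those of Gm11788 and Rnf167 on the opposite strand, and those of Slc25a25 overlap Naif1, so reads of these genes could be shared. Slc25a1, the citrate carrier that supplies acetyl groups for lipid synthesis, had a log2 fold change of 0.07 (95% interval -0.07 to 0.21). Slc25a21, which carries oxoadipate from lysine breakdown, was at -0.05 (95% interval -0.22 to 0.13). Slc25a20, the carnitine-acylcarnitine carrier through which fatty acids reach the matrix, measured 43.5, 51.9 and 47.5 CPM in NP200 kidneys, against 49.1, 48.5 and 48.7 CPM in CON kidneys. The NP200 kidneys spread to both sides of CON, whose 3 values nearly coincided (log2 fold change -0.03, SE 0.08, 95% interval -0.20 to 0.13).

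Among 9 amino acid carriers 6 had a negative value, with a median of -0.06. Slc25a15, the ornithine carrier of the urea cycle and of arginine metabolism, was the most abundant per length and measured 163, 174 and 194 CPM in NP200 kidneys, against 193, 193 and 186 CPM in CON kidneys. NP200 3 slightly exceeded all CON kidneys and NP200 1 and 2 lay below them (log2 fold change -0.11, SE 0.07, 95% interval -0.27 to 0.06). Slc25a15 was at -0.05 without NP200 1 and -0.18 without NP200 3, on the same log2 scale. Slc25a2, its close relative, had 9, 12 and 6 counts in NP200 kidneys, against 14, 10 and 12 counts in CON kidneys and a 95% interval of -1.15 to 0.50, which does not exclude a fall by 2-fold. The aspartate-glutamate carriers of the malate-aspartate shuttle, Slc25a13 and Slc25a12, had log2 fold changes of -0.09 (95% interval -0.27 to 0.10) and -0.06 (95% interval -0.23 to 0.11). Per kilobase Slc25a13, the citrin gene, exceeded Slc25a12 by 1.95-fold ± 0.0812 in NP200 and 1.99-fold ± 0.0816 in CON kidneys (SD, n = 3 each).

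Slc25a44, a carrier of branched-chain amino acids, measured 41.0, 41.7 and 39.1 CPM in NP200 kidneys, against 42.7, 45.2 and 44.1 CPM in CON kidneys. The groups did not overlap (log2 fold change -0.12, SE 0.07, 95% interval -0.26 to 0.03, edgeR adjusted p = 0.734). Slc25a18, a glutamate carrier, measured 1.79, 1.63 and 1.87 CPM in NP200 kidneys, against 1.29, 1.39 and 1.44 CPM in CON kidneys. It was the only tested member with every NP200 kidney above every CON kidney, on 119 and 99 counts in all (log2 fold change 0.36, SE 0.22, 95% interval -0.14 to 0.86, edgeR adjusted p = 0.757). Its reads are uncertain, since its exons overlap those of Atp6v1e1 on the other strand and no source used here gives the strand protocol. The expected counts of Slc25a18 were whole in all 6 libraries. The second glutamate carrier, Slc25a22, was 4.13-fold ± 0.356 as abundant as Slc25a18 in NP200 and 5.15-fold ± 0.819 in CON kidneys per kilobase, with a log2 fold change of 0.04. Slc25a38, which brings glycine to heme synthesis, was at -0.02, and Slc25a29, a carrier of basic amino acids, at 0.19 (95% interval -0.27 to 0.64).

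Of the iron and glutathione carriers, 2 of 4 values were negative. Slc25a39 measured 272, 292 and 294 CPM in NP200 kidneys, against 306, 292 and 290.3 CPM in CON kidneys, with overlap (log2 fold change -0.05, SE 0.06, 95% interval -0.19 to 0.09). Slc25a39 was at -0.01 without NP200 1, -0.02 without CON 1 and -0.07 without NP200 3, on the same log2 scale. Its relative Slc25a40 had a log2 fold change of 0.09 (95% interval -0.13 to 0.32) and was the rarer of the pair by 33.0-fold ± 4.76 in NP200 and 35.9-fold ± 1.26 in CON kidneys per kilobase. Slc25a28, the mitoferrin that imports iron in most tissues, measured 36.1, 37.7 and 36.2 CPM in NP200 kidneys, against 36.4, 31.2 and 35.9 CPM in CON kidneys. CON 2 was the lowest library and the rest lay close together (log2 fold change 0.09, SE 0.08, 95% interval -0.08 to 0.26). Slc25a28 was at 0.02 without CON 2 and 0.13 without CON 1, on the same log2 scale. Slc25a37, the mitoferrin of red cell precursors, was at a log2 fold change of -0.08 (95% interval -0.27 to 0.11). The 5 erythrocyte markers beside it summed to 488 to 626 CPM in NP200 and 579 to 861 CPM in CON kidneys, with a median log2 fold change of -0.49 and 0 called by edgeR. All 5 had an unadjusted p under 0.05, against 7.19% of all genes.

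The uncoupling-protein-like members had 1 negative value among 5. Slc25a30, first described as a kidney mitochondrial carrier, was the most abundant of them and measured 105, 121 and 125 CPM in NP200 kidneys, against 115, 103 and 113 CPM in CON kidneys, with overlap (log2 fold change 0.09, SE 0.08, 95% interval -0.09 to 0.27). Slc25a30 was at 0.16 without NP200 1, 0.03 without NP200 3 and 0.04 without CON 2, on the same log2 scale. The others, Slc25a14, Slc25a27, Slc25a34 and Slc25a35, had log2 fold changes between -0.16 and 0.16. Among the 6 members outside the groups above, Slc25a45 measured 26.8, 24.9 and 27.4 CPM in NP200 kidneys, against 32.1, 27.0 and 28.0 CPM in CON kidneys, with overlap (log2 fold change -0.14, SE 0.08, 95% interval -0.33 to 0.05). Slc25a45 was at -0.06 without CON 1 and -0.19 without CON 2, on the same log2 scale. Slc25a46, an outer membrane protein of mitochondrial dynamics, had a log2 fold change of -0.10 (95% interval -0.26 to 0.06), Slc25a48 of -0.11, Slc25a47 of 0.27 and Slc25a53 of 0.24. Slc25a43 had 2, 7 and 6 counts in NP200 kidneys, against 9, 11 and 5 counts in CON kidneys and was not tested. The tested members were thus 43 of 47, the others being Slc25a31, Slc25a41, Slc25a43 and Slc25a54.

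NP200 1 was the lowest library in 17 of the 43 tested members, or 39.5%, and in 19.4% of all tested genes. The other NP200 kidneys were lowest in 6 and 7 members, and CON 1, 2 and 3 in 2, 10 and 1. The 47 members summed to 3419, 3785 and 3681 CPM in NP200 kidneys, against 3814, 3793 and 3723 CPM in CON kidneys. The groups overlapped, since NP200 2 exceeded CON 3. Without NP200 1 the family's median log2 fold change was -0.012, against -0.03 with all libraries.

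**Figure D3:**
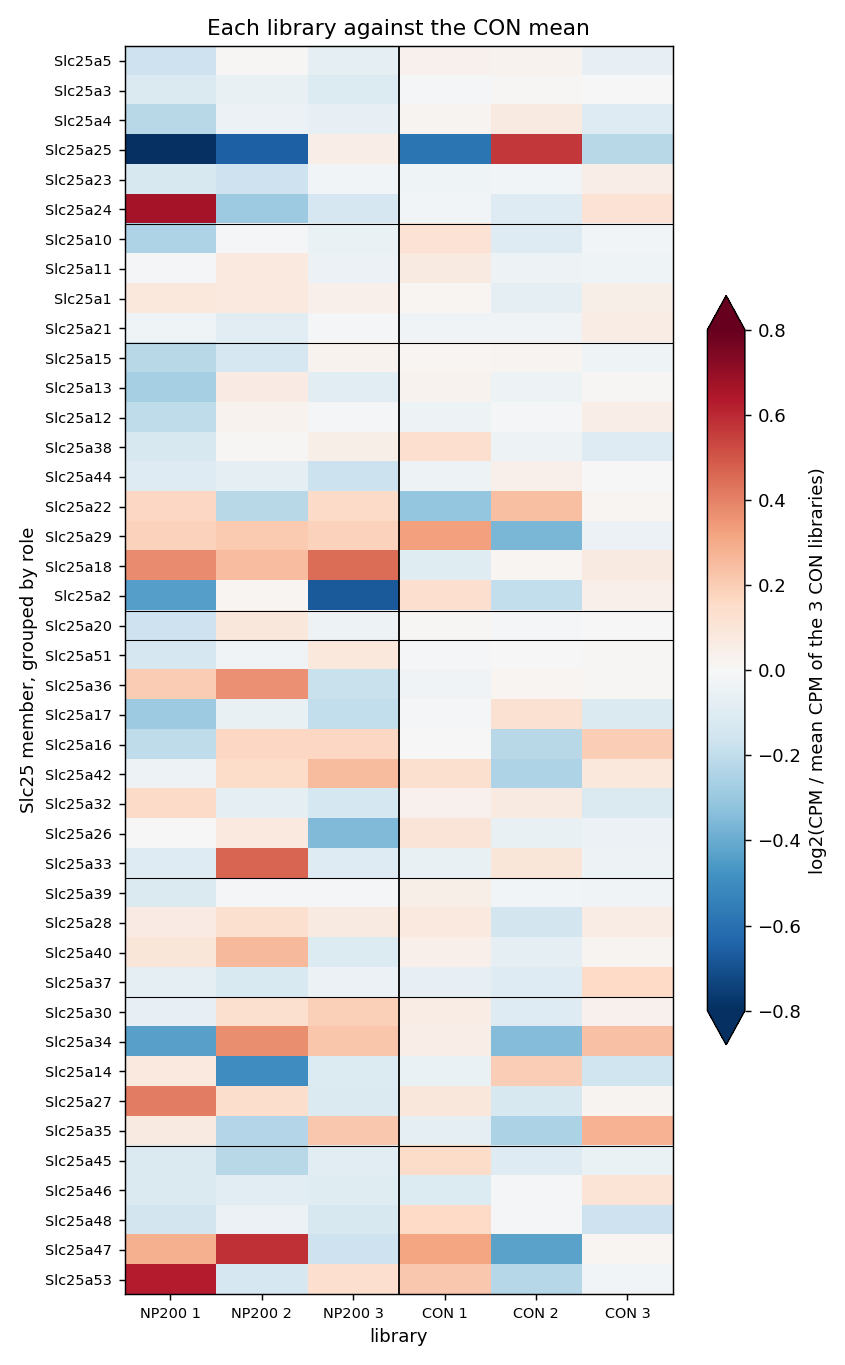
The 42 Slc25 genes shown (rows, grouped by what they carry) in each library (columns), as log2 of the CPM over the mean CPM of the 3 CON kidneys; blue is below and red above that mean, and colours saturate at 0.8 in either direction. Slc25a25 varies most within the groups, Slc25a34 and several of the rarer members also vary widely, and NP200 1 is below the CON mean in many rows.

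NP200 1 also stood apart in its markers of other tissue. The 8 adipocyte markers summed to 209, 33.4 and 30.7 CPM in NP200 kidneys, against 31.8, 39.0 and 73.2 CPM in CON kidneys. Outside NP200 1 and CON 3 nearly all of this sum was 1 gene, Fabp4. It measured 98.9, 33.3 and 30.6 CPM in NP200 kidneys, against 31.6, 38.1 and 45.1 CPM in CON kidneys. Adipoq, the fat cell hormone, had 444, 0 and 2 counts in NP200 kidneys, against 0, 1 and 130 counts in CON kidneys. The 5 urothelial markers summed to 17.4, 2.505 and 2.86 CPM in NP200 kidneys, against 5.46, 3.82 and 1.70 CPM in CON kidneys. Aqp2, the water channel of collecting duct principal cells, measured 149, 61.1 and 46.1 CPM in NP200 kidneys, against 58.8, 61.7 and 43.3 CPM in CON kidneys. The proximal tubule markers of NP200 1 summed to 15435 CPM, against 17473 and 18207 CPM in the other NP200 kidneys. The part of these tissues in the family's values was not tested. Macrophage markers summed to 98.4 to 104 CPM in NP200 and 108 to 118 CPM in CON kidneys, without overlap, with 0 of 8 tested genes called. All 8 had a negative log2 fold change, and 2 had an unadjusted p under 0.05 in edgeR, against 7.19% of all genes. Endothelial markers summed to 265 to 299 CPM in NP200 and 267 to 279.7 CPM in CON kidneys, smooth muscle markers to 56.4 to 76.4 CPM in NP200 and 65.3 to 69.2 CPM in CON kidneys and skeletal muscle markers to 0.835 to 1.248 CPM in NP200 and 0.737 to 1.32 CPM in CON kidneys.

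**Figure D4:**
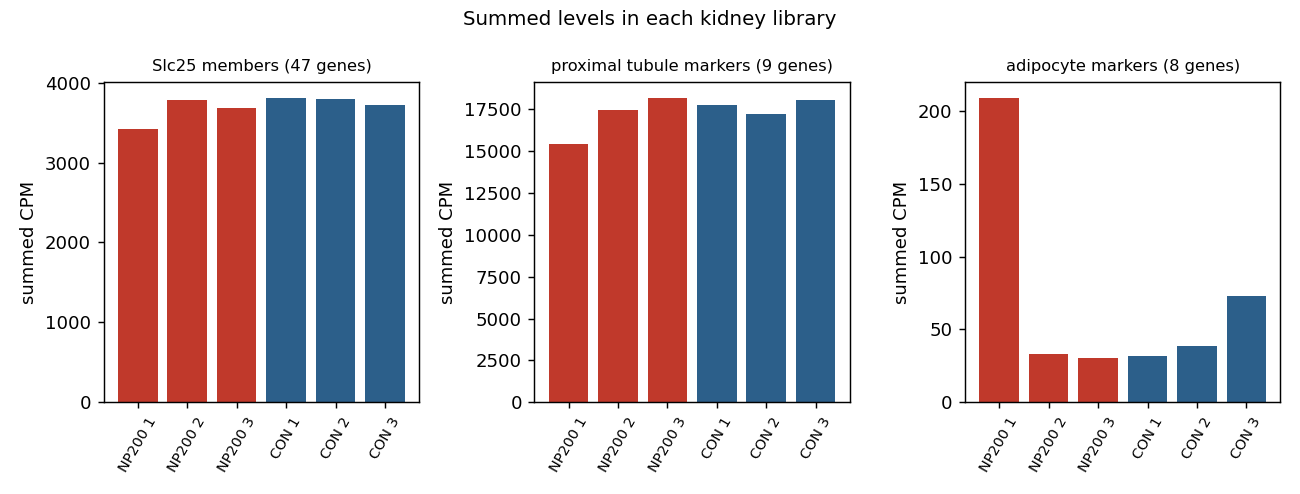
Summed CPM of the 47 Slc25 genes, of 9 proximal tubule markers and of 8 adipocyte markers in each library, with bars from 0 for 3 NP200 (red) and 3 CON (blue) kidneys. NP200 1 has the lowest Slc25 and proximal tubule sums and the highest adipocyte sum.

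Without NP200 1 and CON 3, the 2 libraries with the highest adipocyte sums, edgeR again called 0 Slc25 genes, and 4 had an unadjusted p under 0.05, against 9.84% of all genes. Among them were Slc25a30 (log2 fold change 0.18), Slc25a34 (0.44) and Slc25a16 (0.28), with edgeR adjusted p values from 0.311 to 0.501. The family's median was then -0.0149 in log2 fold change.

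Carrier family proteins with other symbols were few. Mtch2 and Mtch1, outer membrane proteins of the family, were at -0.07 and -0.08 in log2 fold change, with SE 0.07 and 0.08. Ucp2, an uncoupling protein of many tissues, measured 14.8, 11.8 and 13.8 CPM in NP200 kidneys, against 14.1, 16.5 and 14.8 CPM in CON kidneys, with overlap (log2 fold change -0.17). Ucp1, the uncoupling protein of brown fat, had 106, 0 and 0 counts in NP200 kidneys, against 0, 5 and 10 counts in CON kidneys. Ucp3, that of muscle, had 17, 0 and 0 counts in NP200 kidneys, against 1, 1 and 2 counts in CON kidneys. Within NP200 the counts of Ucp1 and Ucp3 stood wholly in NP200 1, the library with the highest adipocyte markers. Ucp1 is itself among those markers, so its counts are part of their sum.

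No gene of the lists that act with the carriers passed the test either. Over 9 lists of partner genes edgeR tested 80 of 83 genes and called 0, while 3 had an unadjusted p under 0.05, against 7.19% of all genes. DESeq2 and limma-voom also called 0 and gave 5 each at that level. The share of all genes was 2.92% in DESeq2, over 31316 genes with no count filter, and 7.19% in limma-voom, over 18092 filtered genes. The DESeq2 share therefore covers many rarer genes than the lists do. The groups did not overlap in 11 of the 80 genes, 10 lower and 1 higher in NP200. Over all genes this share was 12.9% (6.32% lower and 6.54% higher). For mitochondrial transport outside the family, 16 of 24 tested genes had a negative and 8 a positive log2 fold change, with a median of -0.06. Mpc1, a subunit of the pyruvate carrier, measured 202, 243 and 241 CPM in NP200 kidneys, against 269, 279 and 247 CPM in CON kidneys, without overlap (log2 fold change -0.21, SE 0.08). Letm1, a cation exchanger, was at -0.14 (SE 0.06) in log2 fold change. In the import machinery of carrier proteins 10 of 11 tested genes had a negative and 1 a positive log2 fold change, with a median of -0.10. There the small chaperones Timm8a1 and Timm8b were at -0.21 (SE 0.10) and -0.25 (SE 0.12). Of the shuttle enzymes, Cpt2, the inner carnitine palmitoyltransferase, was at -0.16 (SE 0.07) and Cpt1c at 0.27 (SE 0.31). The malate dehydrogenases Mdh2 and Mdh1 were at -0.10 (SE 0.06) and -0.11 (SE 0.08). For citrate, ketoacid and glutamate enzymes 7 of 9 tested genes had a negative and 2 a positive log2 fold change, with a median of -0.06, and Cs, citrate synthase, was at -0.08 (SE 0.06) and Pck1 at -0.25 (SE 0.18).

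Beside the ornithine carriers, Oat, the ornithine aminotransferase, was at -0.13 (SE 0.07) in log2 fold change. Odc1, the ornithine decarboxylase of polyamine synthesis, measured 988, 992 and 1407 CPM in NP200 kidneys, against 1548, 1840.4 and 1435 CPM in CON kidneys. NP200 3 came close to CON 3, and the groups did not overlap (log2 fold change -0.51, SE 0.14, edgeR adjusted p = 0.524). Of the iron-sulfur and heme enzymes, Cpox measured 73.4, 73.9 and 76.1 CPM in NP200 kidneys, against 85.9, 92.2 and 82.4 CPM in CON kidneys, without overlap (log2 fold change -0.22, SE 0.07, edgeR adjusted p = 0.542). Ppox, the next enzyme of heme synthesis, was at 0.16 (SE 0.08), with every NP200 kidney above every CON kidney. The carnitine list had a median of 0.01, the malate-aspartate and glycerol phosphate list -0.05, the ornithine and arginine list -0.01 and the iron-sulfur and heme list 0.0019. Regulators of mitochondrial gene expression had a median of 0.01 over 9 genes, with Thra, a thyroid hormone receptor, at 0.12 (SE 0.08) and Nrf1 at -0.08 (SE 0.07).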

How the data were processed

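Kidney RNA of 6 mice was sequenced as 1 library each, 3 NP200 and 3 CON. STAR 2.7.9a, RSEM 1.3.3, Trim Galore 0.6.6 and FastQC, on GRCm39, are named per the submitters' processing notes, with an annotation release not given in the sources used here. Each file the authors deposited holds RSEM expected counts, which are not normalized, with an effective length per gene. The TPM values the authors deposited are length-scaled shares and entered 1 alternative. The 7SL genes Rn7s1 and Rn7s2 took 10.6% to 12.4% of the counts.

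Of 57180 gene IDs 51884 were named by gene ID from GENCODE vM21, 247 by transcript ID and 5049 not at all. That annotation is on GRCm38 and gave names, biotypes and exon overlaps alone. Exons of 14 Slc25 genes overlap another gene, 12 on the opposite strand, and 15 had a value that was not whole (beyond 0.005) in a library, so their reads may be shared.

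The expected counts were rounded to whole numbers. After filterByExpr and TMM scaling, edgeR 4.0.16 in R 4.3.3 fitted a quasi-likelihood model with no term but the group, with Benjamini-Hochberg adjustment over 18092 genes and a threshold of 0.05. DESeq2 1.42.0, limma-voom (limma 3.58.1), other scalings and filters, a replicate block and left-out libraries were alternatives. TPM was tested as log2(TPM + 0.1). The floor was 3 counts, for counting error only. The SE is the log2 fold change over the square root of F. The procedure was tested on simulated data with known changes. There edgeR called 8.67% of 1.25-fold, 52% of 1.5-fold and 81.3% of 2-fold changes, with 14 false calls per run among 18092 genes. Small changes would thus mostly be missed.

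The members and lists were chosen with earlier results of these data known. Values by library were given for the 4 tested members of lowest p in either direction, the 8 most abundant per kilobase, the most abundant of each role and the ADP/ATP carriers; of each related list, the 2 genes with the lowest p are named. Values of 1 tested member are not reported here, although it stays in the counts and medians. Slc25a2, Slc25a24, Slc25a25, Mpc1, Odc1, Cpox, Ucp2, Jun, Fos, Aqp2, Slc26a4 and Atp6v1g3 were given by library after their values were seen.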

Additional observations from a re-analysis of the deposited data

How the results depend on the processing

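Under all 16 alternatives 0 Slc25 genes were called. The family's median log2 fold change was 0.0086 with library size scaling and 0.0296 with TPM, beside medians over all genes of 0.0508 and 0.0659, and -0.0652 to -0.0117 with 1 library left out. The family's median minus that of all genes was negative in every setting, from -0.0727 to -0.0122. Over all genes the alternatives called 0 but for DESeq2 (0.44%), no count filter (207 of 31335, 0.661%), without CON 3 and NP200 1 (27), without NP200 1 (5) and without NP200 3 (2). An unadjusted p under 0.05 was reached by 6.67% of all genes, 3 Slc25 genes and 9 partner genes with no count filter. It was reached by 5.35%, 0 and 2 with TPM, by 7.41%, 2 and 5 with the replicate block, and by 9.84%, 4 and 8 without CON 3 and NP200 1. Partner genes numbered 6 with library size scaling, 5 with DESeq2 and 5 with limma-voom, against 7.71%, 2.92% and 7.19% of all genes. The DESeq2 share is over genes with no count filter. With 1 library left out there were 1 to 4 Slc25 genes and 2 to 11 partner genes, against 3.83% to 9.29% of all genes. The 4 arose without NP200 3, where the share of all genes was highest, and Slc25a15, Slc25a25 and Slc25a36 were among them; the most partner genes were found without NP200 3 or CON 3 (8.2%). With no count filter 1 partner gene, Odc1, was called, beside the 207 of all genes. Slc25a17 reached an unadjusted p under 0.05 in edgeR with no count filter, the replicate block, without NP200 2 and without CON 3. Its edgeR adjusted p values there were 0.567 to 0.868. Of 288 values of the 18 members chosen by rule 274 kept their sign. Slc25a20 turned positive with library size scaling (0.0086), TPM (0.0177), without NP200 1 (0.0306) and without both libraries (0.0311). Slc25a51 did so in the same settings, at 0.0180, 0.1028, 0.0320 and 0.0382, and Slc25a39 with TPM (0.0296). Slc25a11 turned negative with no count filter (-0.0004), DESeq2 (-0.0005) and without NP200 2 (-0.0319), CON 2 (-0.0140) or CON 3 (-0.0114). With 1 library left out, Slc25a11 ranged from -0.0319 to 0.0449, Slc25a20 from -0.1009 to 0.0306 and Slc25a51 from -0.0821 to 0.0320. The cause of these shifts was not tested. Same-numbered mice are not stated to be paired, and their libraries deviated together with correlations of -0.023 to 0.103; the replicate block changed no call. The widest intervals in the family were those of Slc25a2 and Slc25a25, and the 4 members under the count filter have no test.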
